A study of Mus musculus with 9 samples.

Results

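The 10 genes described here, Wnt7a, Wnt7b, Wnt8b, Wnt3a, Fzd1, Fzd5, Lrp6, Sfrp1, Lef1 and Axin2, encode ligands, receptors, an antagonist and transcriptional readouts of the Wnt pathway in the dorsal cortex. They were chosen by name, are 10 of 23201 genes measured, and are represented by 15 of 30978 RefSeq transcripts, of which the one with the highest mean stands for each gene. The libraries come from the embryonic mouse cerebral cortex at E13.5, a tissue that the labels describe as neuronal stem cells plus neurons, from a C57BL/6+C57BL/6J+CBA strain mix. There were 3 libraries homozygous for an Sfpq knockout (Sfpq-/-), 3 heterozygous libraries (Sfpq+/-) and 3 control libraries. All 9 were made from total RNA freed of ribosomal RNA, and so hold RNA with and without a poly(A) tail. Not given in the sources used here are the mutation and how it was brought about, any Cre driver and what the control embryos carry, and the extraction notes write Sfpq+/- for both mutant groups. The libraries are labelled as replicates with no word on whether each came from its own embryo, so a p-value measures the spread between these libraries, which may in part be technical.

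Wnt proteins are secreted lipid-modified ligands that bind Frizzled receptors together with the co-receptors Lrp5 and Lrp6. In the canonical branch this spares beta-catenin from the destruction complex, which is built on Axin, and beta-catenin then acts with transcription factors of the Tcf and Lef family on target genes that include Axin2 itself. In the embryonic telencephalon the cortical hem at the medial edge makes Wnt3a and other Wnts, Wnt8b marks the medial wall, and Wnt7a and Wnt7b are the Wnts of the cortical wall itself, with roles in progenitors, in neurons and on the vessels that grow into the brain.

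Levels are RPKM, the deposited reads per kilobase of transcript scaled to library size, so they can be set side by side between genes. Fold changes are differences of log2(RPKM + 0.5), a scale that understates the change of low genes. They come with a standard error (SE) from 1 limma fit over the 9 libraries and 12159 genes averaging at least 0.5 RPKM, and a gene was called at a Benjamini-Hochberg adjusted p below 0.05. The low values fit estimated depths of 169.2 to 205.8 (in 1e6 reads). Sfpq itself, here a non-coding transcript variant, stood at 26.1, 28.6 and 27.6 RPKM in homozygous libraries, at 185, 163 and 169 RPKM in heterozygous ones and at 184, 202 and 218 RPKM in control ones. All 12 markers of cortical radial glia and all 10 of neurons averaged at least 0.5 RPKM. Read from Xist and 4 Y-linked genes, homozygous libraries were 1 female and 2 male, heterozygous ones 3 male, and control ones 2 female and 1 male, so sex was uneven between groups.

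Of the 10 genes 9 passed the filter, and Fzd5 did not. In homozygous against control cortex 3 of the 9 rose, Wnt7a, Wnt7b and Lef1, and none fell. Across all genes tested 34.3% were called in that comparison, 14.4% higher and 19.9% lower, so that 3 of 9 is close to the share over all genes. That split rests on the scaling, since quantile normalization called 2568 genes higher and 2167 lower in place of 1747 and 2423, and the same 3 Wnt genes were called under it. In homozygous against heterozygous cortex none of the 9 was called, against 32.8% of all genes, 14.6% higher and 18.3% lower. In heterozygous against control cortex none of the 9 was called by limma, and 0.00% of all genes were. At an unadjusted p below 0.05 in that comparison, limma gave 1 of the 9, Sfrp1, and 699 of 12159 genes, 5.75%. A fit of those 2 groups alone called 1 gene of the 12159 and no gene of the 9.

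**Figure D1:**
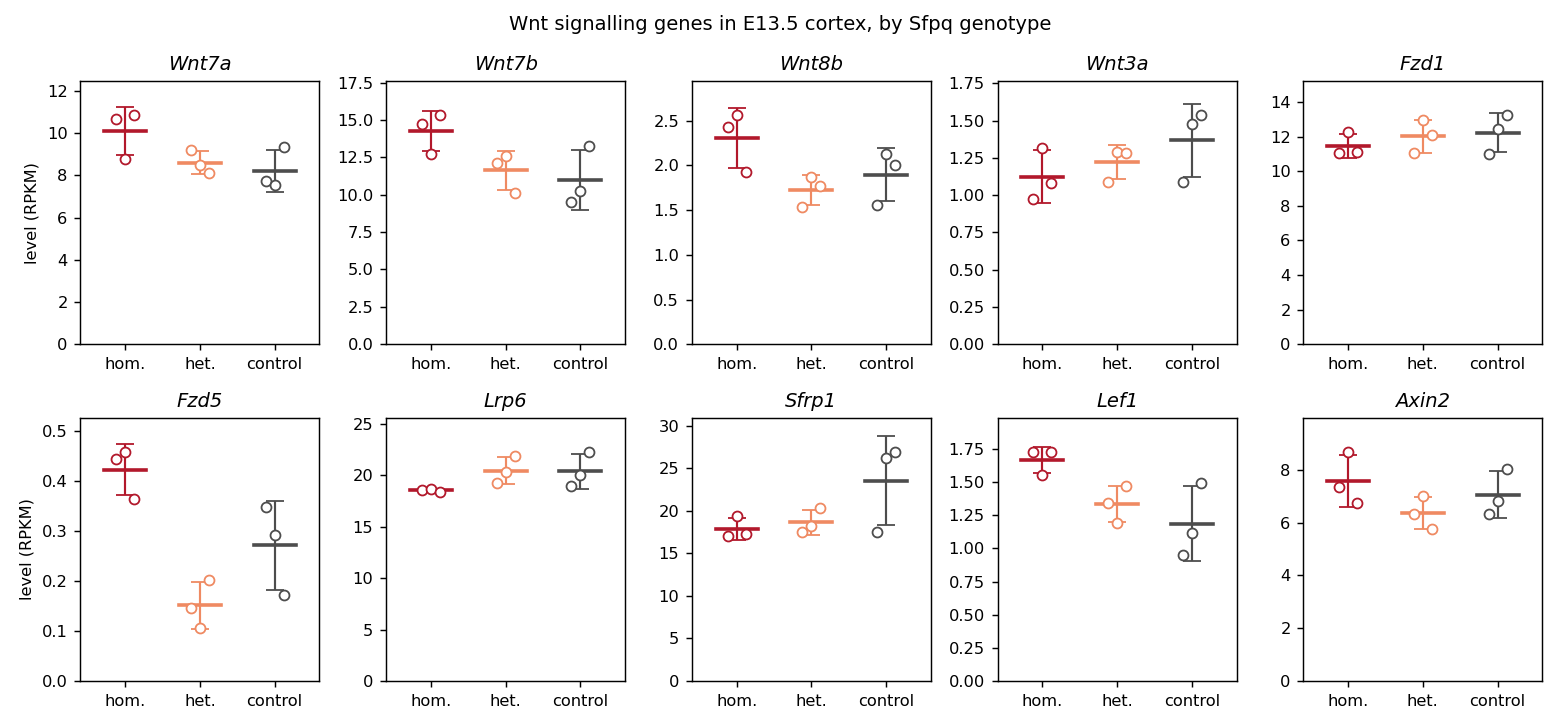
Level in RPKM of each of the 10 Wnt signalling genes in the 9 libraries; points are libraries, horizontal bars group means and whiskers SD (n = 3), with homozygous (hom.), heterozygous (het.) and control libraries from left to right. The Lef1 points of the homozygous group, 1.55 to 1.73 RPKM, lie above all 3 control points, and the Sfrp1 control points run between 17.5 and 26.9 RPKM.

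The ligands differed in level. In homozygous cortex Wnt7b averaged 14.3 RPKM, Wnt7a 10.1, Wnt8b 2.30 and Wnt3a 1.12, and no library of one of these genes overlapped the values of the next. The order was the same in heterozygous and in control cortex. Of 19 Wnt ligand genes, 12 averaged under 0.5 RPKM over the 9 libraries, among them Wnt1, Wnt3 and Wnt4, so that Wnt7a and Wnt7b made up most of the summed ligand level. That sum was 36.7, 33.5 and 37.7 RPKM in homozygous libraries, 31.8, 32.8 and 30.2 RPKM in heterozygous ones and 28.5, 31.2 and 36.7 RPKM in control ones. The 17 other ligands together gave 11.3 to 11.97 RPKM in homozygous, 10.5 to 11.98 RPKM in heterozygous and 11.2 to 14.1 RPKM in control libraries, 3 ranges that overlap.

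Wnt7b, which signals from the cortical wall to vessels and neurons, measured 14.7, 12.7 and 15.3 RPKM in homozygous libraries, 12.2, 12.6 and 10.1 RPKM in heterozygous ones and 9.52, 10.2 and 13.3 RPKM in control ones. The homozygous values lay above all heterozygous ones, while the highest control library, number 3, lay above the lowest homozygous one. Wnt7b averaged 14.3 ± 1.35 RPKM in homozygous and 10.999 ± 1.99 RPKM in control cortex (SD, n = 3 each), a rise of 0.37 on the log2 scale (SE 0.121, 95% interval 0.10 to 0.64, limma adjusted p = 0.0356). Against heterozygous cortex the difference was 0.29 (95% interval 0.02 to 0.55, limma adjusted p = 0.0956). All 3 of its RefSeq transcripts, which share most of their exons, gave the same picture, with log2 ratios of the homozygous to the control mean of 0.35 to 0.36.

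Wnt7a, the partner of Wnt7b in the cortical wall, measured 10.7, 8.79 and 10.9 RPKM in homozygous libraries, 9.23, 8.49 and 8.13 RPKM in heterozygous ones and 7.74, 7.55 and 9.37 RPKM in control ones. Homozygous library 2 was inside the range of both other groups, and the other homozygous libraries were above every other value. Wnt7a averaged 10.1 ± 1.147 RPKM in homozygous and 8.22 ± 0.998 RPKM in control cortex, a rise of 0.28 on the log2 scale (SE 0.099, 95% interval 0.07 to 0.50, limma adjusted p = 0.0463). The difference from heterozygous cortex was 0.21 (95% interval 0.00 to 0.43, limma adjusted p = 0.123).

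The calls of Wnt7a, Wnt7b and Lef1 are close to the threshold. With sex as a term in the model none of the 3 passed, at limma adjusted p of 0.0839, 0.0704 and 0.0514 in that order. The male homozygous libraries had 8.79 and 10.9 RPKM of Wnt7a, 12.7 and 15.3 of Wnt7b and 1.55 and 1.73 of Lef1, and the only male control library, number 3, had 9.37 of Wnt7a, 13.3 of Wnt7b and 1.497 RPKM of Lef1, the highest control value of each. The female homozygous library had 10.7 RPKM of Wnt7a, 14.7 of Wnt7b and 1.73 of Lef1, and the 2 female control libraries had 7.55 and 7.74, 9.52 and 10.2, and 0.948 and 1.12 RPKM. Within a sex the groups hold too few libraries for a test. None of the 3 calls passed without control library 1, with adjusted p of 0.124, 0.119 and 0.0928, nor when control library 2, homozygous library 1 or homozygous library 3 was left out. In the fit with no filter on low values, over 19153 genes, none of the 3 passed either, at limma adjusted p of 0.0909, 0.0857 and 0.0604.

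Wnt8b, a marker of the medial cortical wall, measured 2.42, 2.56 and 1.92 RPKM in homozygous libraries, 1.54, 1.87 and 1.76 RPKM in heterozygous ones and 1.56, 2.12 and 2.00 RPKM in control ones. Every homozygous value was above every heterozygous one, and homozygous library 3 was inside the control range. The log2 difference was 0.23 in homozygous against control cortex (95% interval -0.03 to 0.48, limma adjusted p = 0.164) and 0.33 in homozygous against heterozygous cortex (95% interval 0.07 to 0.59, limma adjusted p = 0.0507). The second value passed 0.05 under 9 of 20 alternative settings, with adjusted p between 0.0201 and 0.158, so it lies at the threshold.

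Wnt3a, a ligand of the cortical hem, measured 0.972, 1.32 and 1.08 RPKM in homozygous libraries, 1.09, 1.29 and 1.28 RPKM in heterozygous ones and 1.09, 1.48 and 1.53 RPKM in control ones. The 3 groups overlapped. The log2 difference between homozygous and control cortex was -0.20 (95% interval -0.45 to 0.05, limma adjusted p = 0.213), and without control library 1 it was -0.31 (limma adjusted p = 0.0498). Markers of the hem, leaving out Wnt3a and Wnt8b, summed to 43.1, 46.2 and 43.1 RPKM in homozygous libraries, 36.8, 43.3 and 42.3 RPKM in heterozygous ones and 35.1, 41.9 and 46.6 RPKM in control ones. Of the 12 hem markers tested, Wnt3a and Wnt8b included, 1 rose, Rspo3, and none fell, 8.33% called against 34.3% of all genes. In tissue RNA, fewer cells of a type and less RNA per cell cannot be told apart.

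Fzd1, a Frizzled receptor, measured 11.03, 12.3 and 11.1 RPKM in homozygous libraries, 11.04, 12.95 and 12.1 RPKM in heterozygous ones and 11.01, 12.4 and 13.2 RPKM in control ones. The lowest values of the 3 groups lay between 11.01 and 11.04 RPKM, and the ranges overlapped. The log2 difference was -0.09 in homozygous against control cortex (95% interval -0.27 to 0.09, limma adjusted p = 0.453).

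Lrp6, the co-receptor that is phosphorylated when a Wnt binds, measured 18.5, 18.7 and 18.4 RPKM in homozygous libraries, 19.2, 20.3 and 21.9 RPKM in heterozygous ones and 18.9, 20.1 and 22.3 RPKM in control ones. All 3 homozygous values were below all 6 others, and they lay close together, 18.5 ± 0.158 RPKM (SD, n = 3) against 20.4 ± 1.70 RPKM in control cortex. The gap was small: -0.13 on the log2 scale against control (95% interval -0.28 to 0.02, limma adjusted p = 0.155) and -0.14 against heterozygous cortex (95% interval -0.29 to 0.01, limma adjusted p = 0.145).

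Fzd5, a Frizzled known for its role in the developing eye, was the lowest of the 10 and the one that differed most between the mutant groups. It measured 0.446, 0.459 and 0.364 RPKM in homozygous libraries, 0.146, 0.106 and 0.202 RPKM in heterozygous ones and 0.349, 0.292 and 0.173 RPKM in control ones. The homozygous values lay above every other value, and the heterozygous ones overlapped the control range only at its lower end. Its mean was 155.8% of control in homozygous and 55.7% of control in heterozygous cortex. All 3 heterozygous libraries were male, and the only male control library, at 0.173 RPKM, lay inside their range. The 2 female control libraries had 0.292 and 0.349 RPKM, so sex and heterozygous genotype cannot be told apart in the 55.7%. The male homozygous libraries had 0.364 and 0.459 RPKM. Each value rests on an estimated 134 reads or more. In a fit with no filter, over 19153 genes, Fzd5 rose in homozygous against heterozygous cortex by 0.50 on the log2 scale (SE 0.091, 95% interval 0.29 to 0.71, limma adjusted p = 0.00559), where 22.3% of genes were called. In the same fit, where 23.3% of genes were called in homozygous against control cortex, the difference from control was 0.26 in homozygous cortex (95% interval 0.05 to 0.47, limma adjusted p = 0.0738) and -0.24 in heterozygous cortex (95% interval -0.45 to -0.03, limma adjusted p = 0.777).

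Sfrp1, a secreted Frizzled-related protein that binds Wnts outside the cell, measured 17.0, 19.4 and 17.3 RPKM in homozygous libraries, 17.5, 18.2 and 20.3 RPKM in heterozygous ones and 17.5, 26.2 and 26.9 RPKM in control ones. The control libraries split, with number 1 among the mutant values and the other two above all 6 of them. Sfrp1 averaged 17.9 ± 1.28 RPKM in homozygous, 18.6 ± 1.46 RPKM in heterozygous and 23.5 ± 5.22 RPKM in control cortex (SD, n = 3 each). The log2 difference from control was -0.36 in homozygous cortex (SE 0.135, 95% interval -0.66 to -0.07, limma adjusted p = 0.0588) and -0.31 in heterozygous cortex (95% interval -0.60 to -0.01, limma adjusted p = 0.854). Without control library 1 the first was -0.56 (limma adjusted p = 0.000374), and with sex in the model it was -0.43 (limma adjusted p = 0.0276).

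Lef1, a transcription factor that carries beta-catenin to DNA and is itself a Wnt target, measured 1.73, 1.55 and 1.73 RPKM in homozygous libraries, 1.34, 1.19 and 1.47 RPKM in heterozygous ones and 0.948, 1.12 and 1.497 RPKM in control ones. The homozygous values lay above all 6 others. Lef1 averaged 1.67 ± 0.10004 RPKM in homozygous and 1.19 ± 0.281 RPKM in control cortex, a rise of 0.37 on the log2 scale (SE 0.114, 95% interval 0.12 to 0.63, limma adjusted p = 0.0260). Its difference from heterozygous cortex was 0.24 (95% interval -0.01 to 0.49, limma adjusted p = 0.131). The other Lef1 transcripts, of 3 in all, gave log2 ratios of the homozygous to the control mean of 0.34 and 0.35, against 0.36 for the one chosen.

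Axin2, the feedback inhibitor that is widely used as a readout of canonical Wnt signalling, measured 7.34, 8.67 and 6.74 RPKM in homozygous libraries, 6.33, 6.996 and 5.76 RPKM in heterozygous ones and 6.31, 6.82 and 8.04 RPKM in control ones. The 3 groups overlapped. The log2 difference was 0.10 in homozygous against control cortex (95% interval -0.14 to 0.34, limma adjusted p = 0.538) and 0.23 in homozygous against heterozygous cortex (95% interval -0.01 to 0.47, limma adjusted p = 0.129). Axin2 was not called in any of the 3 comparisons under any of the 21 alternative settings, where its difference between homozygous and control cortex ran between 0.00 and 0.19.

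**Figure D2:**
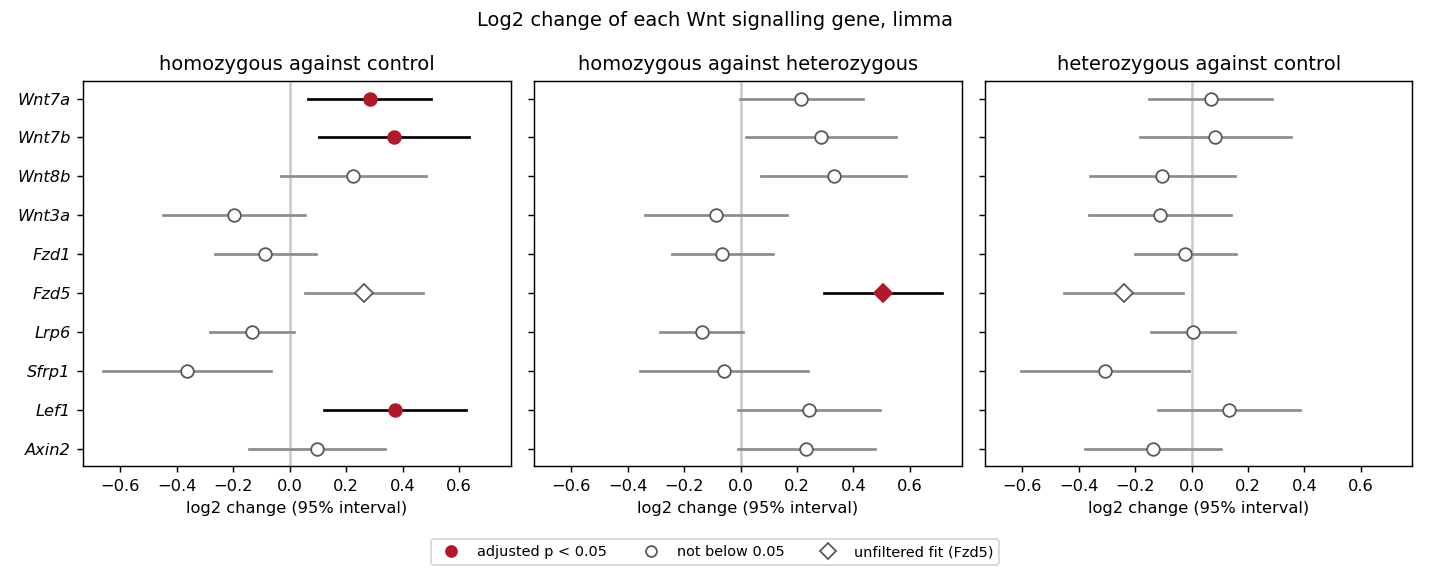
Log2 change (horizontal axis, log2(RPKM + 0.5) scale) of the 10 genes in the 3 comparisons, with 95% intervals from limma; filled symbols are called, and the diamond marks Fzd5 from the fit with no filter. Filled symbols are Wnt7a, Wnt7b and Lef1 against control, between 0.28 and 0.37, and Fzd5 against heterozygous, at 0.50.

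Counting libraries rather than fits, homozygous values lay wholly above control ones for Lef1 and Fzd5 and wholly below for Lrp6. That is 3 of 10 genes, where 46.2% of the genes tested had homozygous and control values that did not overlap. Against heterozygous cortex the values lay wholly apart for 5 of 10 genes, where 46.7% of all genes did so: Wnt7b, Wnt8b, Fzd5 and Lef1 above, and Lrp6 below. Between heterozygous and control cortex the values overlapped for all 10 genes, and 11.1% of all genes did not overlap. An exact permutation test of 3 against 3 libraries, two-sided, cannot go below p = 0.1, and each of these separated genes has that value.

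The order of the 10 levels was similar in the 3 groups. In homozygous cortex Lrp6 and Sfrp1 came first with overlapping values, followed by Wnt7b, Fzd1, Wnt7a, Axin2, Wnt8b, Lef1, Wnt3a and Fzd5, each apart from the next. In heterozygous cortex Fzd1 and Wnt7b overlapped, as did Lef1 and Wnt3a. In control cortex Sfrp1 came first and overlapped Lrp6, Fzd1 overlapped Wnt7b, Wnt7a overlapped Axin2, and Wnt3a overlapped Lef1. Wnt7b therefore stood above Fzd1 in all homozygous libraries, with 14.3 ± 1.35 RPKM against 11.5 ± 0.7003 RPKM, and the pair overlapped in the other groups. Lef1 likewise stood above Wnt3a in homozygous cortex, and overlapped it in heterozygous and control cortex.

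Canonical target genes carry the core letters CTTTGA, which read TCAAAG on the other strand and to which Tcf and Lef factors bind. RefSeq promoter windows of 250 bases before a start (GRCm38.p6) were at hand for 7 of the 10 genes, in 10 windows, and 2 of these hold the core on either strand: 1 of the 4 windows of Lef1, at a start inside the gene, and the window of Fzd1. They are printed because Lef1 was called and Fzd1 was not. The measured Lef1 transcripts span nearly the whole gene, so none of them begins at that inner start. Over all promoters 5257 of 32851 windows, 16.0%, hold the core, searched over a longer stretch, 250 bases before and 50 after the start. Over that stretch 2 of the 10 windows hold it as well. Sequences run 5′ to 3′ on the strand of the gene, and the capitals mark the core.
Lef1, plus strand, chr3:131156044-131156293: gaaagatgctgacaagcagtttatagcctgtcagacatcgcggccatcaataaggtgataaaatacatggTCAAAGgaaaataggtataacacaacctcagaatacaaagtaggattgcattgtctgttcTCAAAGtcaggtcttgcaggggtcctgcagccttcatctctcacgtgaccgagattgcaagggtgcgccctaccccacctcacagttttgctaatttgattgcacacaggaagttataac
Fzd1, minus strand, chr5:4758217-4758466: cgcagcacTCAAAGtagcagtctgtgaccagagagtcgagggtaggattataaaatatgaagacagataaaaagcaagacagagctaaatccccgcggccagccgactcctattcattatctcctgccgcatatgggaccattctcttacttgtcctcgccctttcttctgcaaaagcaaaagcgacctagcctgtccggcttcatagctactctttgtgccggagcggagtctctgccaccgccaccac
Counted from the start, the cores begin at -180 and -120 in the Lef1 window and at -242 in the Fzd1 window. The windows of Wnt7a, Wnt8b, Wnt3a, Axin2 and Fzd5 do not hold these letters, which says nothing of binding elsewhere.

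Genes that moved most like each of the 10 over the 9 libraries were sought among 10926 genes averaging at least 1 RPKM, by Pearson's r of log2(RPKM + 0.5). All points share the same libraries and genotypes, and the highest of so many values is high by selection, so these are descriptions. Wnt7a was most like Pgs1 (r = 0.985), Snx32 (0.973) and Ptcd1 (0.956). Wnt7b was most like the neuronal transcription factor gene Neurod1 (0.973), Ier5 (0.968) and Enc1 (0.957). Lef1 was most like Dnajc16 (0.982), Asl (0.973) and Mrpl49 (0.969). Sfrp1 was most like Csrp1 (0.954), which was also near Wnt3a (0.924), after Msn (0.976) and Gm6793 (0.971). Fzd1 was most like Lmx1a (0.949), a transcription factor gene of the hem. The nearest gene was Itpr1 for Lrp6 (0.984), Ipo5 for Wnt8b (0.932), Acer3 for Fzd5 (0.972) and Utp15 for Axin2 (0.922). No other gene of the 10 was among these nearest genes.

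The rest of the pathway was read from a list of 119 genes, the 10 included, of which 117 were measured and 89 tested. In homozygous against control cortex 17 rose and 17 fell, 38.2% of the 89 against 34.3% of all genes, with a median log2 change of 0.02 against -0.01 over all genes. Among those that rose is Tcf7l2, which passed the filter only through its homozygous values. Quantile normalization gave 22 higher and 16 lower, and 2568 higher and 2167 lower over all genes. Against heterozygous cortex 16 were higher and 18 lower, 38.2% called. Over all genes 32.8% were called there, 14.6% higher and 18.3% lower. Between heterozygous and control cortex limma called 0 of the 89 and 0.00% of all genes, and none of the 89 in the fit of 2 groups. At an unadjusted p below 0.05 limma gave 5 of the 89 there, and 5.75% of all genes.

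Among the other ligands Wnt5b, a Wnt of the non-canonical branch, measured 1.67, 2.01 and 2.09 RPKM in homozygous libraries, 4.18, 4.14 and 4.42 RPKM in heterozygous ones and 5.25, 5.598 and 5.57 RPKM in control ones. No homozygous value reached the others, and Wnt5b fell by 1.31 on the log2 scale (SE 0.080, limma adjusted p = 5.23e-07), against the rises of 0.28 and 0.37 for Wnt7a and Wnt7b. Wnt5a and Wnt2b were not called, at 0.25 (limma adjusted p = 0.134) and -0.29 (limma adjusted p = 0.138). Wls, which carries Wnts to the cell surface, rose by 0.42 (limma adjusted p = 0.00304), to 14.4 ± 0.567 RPKM in homozygous against 10.6 ± 0.584 RPKM in control cortex. The R-spondin gene Rspo3, whose product keeps Frizzled receptors on the surface, rose by 0.29 (limma adjusted p = 0.0234), a call lost in 5 of 21 settings.

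Pathway genes under the filter were read from the fit with no filter, where 27 of them had a value above 0 in some library, and those named here were chosen after their values were seen. In homozygous against control cortex 9 of the 27 were called by limma, each of them higher, where 23.3% of all genes were called either way. On log2(RPKM + 0.5) genes this low have little room to fall, so the shared direction is not a result about these genes. Over all genes, dropping the filter took higher calls from 1747 to 2008 and lower calls from 2423 to 2456. The share called among low genes alone was not computed. The ligand gene Wnt3 measured 1.19, 0.887 and 0.821 RPKM in homozygous libraries, 0.116, 0.0914 and 0.123 RPKM in heterozygous ones and 0.122, 0.122 and 0.186 RPKM in control ones, and rose by 1.18 against control (limma adjusted p = 7.51e-05). Wnt6 had 0.683, 0.551 and 0.847 RPKM in homozygous libraries against 0.115, 0.190 and 0.267 RPKM in control ones, and rose by 0.79 (limma adjusted p = 0.00162). Wnt10a had 0.640, 0.546 and 0.617 RPKM in homozygous libraries against 0.150, 0.215 and 0.195 RPKM in control ones, and rose by 0.68 (limma adjusted p = 6.06e-04). In these 3 ligands every homozygous value was above every heterozygous and control one. Wnt8a and Wnt9b were also called, with changes of 0.06 and 0.07. Notum, a target gene whose product inactivates Wnt ligands by removing their lipid, measured 1.01, 0.720 and 0.801 RPKM in homozygous libraries, 0.148, 0.109 and 0.0703 RPKM in heterozygous ones and 0.140, 0.113 and 0.147 RPKM in control ones. It rose by 1.08 against control (limma adjusted p = 6.79e-05) and by 1.14 against heterozygous cortex (limma adjusted p = 5.87e-05). The other genes called were Dact2 at 0.59, Rnf43 at 0.16 and Kremen2 at 0.09.

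The Frizzled receptors moved in both directions while Fzd1 and Lrp6 were not called. Fzd10 measured 4.34, 4.52 and 3.59 RPKM in homozygous libraries, 1.34, 1.65 and 1.65 RPKM in heterozygous ones and 1.41, 1.76 and 1.81 RPKM in control ones, and rose by 1.10 (limma adjusted p = 1.90e-05). Fzd7 had 6.504, 6.502 and 6.09 RPKM in homozygous libraries against 3.16, 3.53 and 4.13 RPKM in control ones, and rose by 0.75 (limma adjusted p = 1.87e-04). Fzd8 had 4.76, 5.12 and 4.29 RPKM in homozygous libraries against 10.3, 10.04 and 9.78 RPKM in control ones, and fell by 1.02 (limma adjusted p = 1.27e-06). In these 3 genes no homozygous value overlapped a heterozygous or control one. Fzd3 rose by 0.26 (limma adjusted p = 0.0206, lost in 3 of 21 settings) and Fzd9 fell by 0.37 (limma adjusted p = 0.0408, lost in 10 of 21), while Fzd2, Fzd4 and Fzd6 were not called, at 0.11, 0.20 and -0.03. Of the non-Frizzled receptors Ptk7 fell by 0.41 (limma adjusted p = 0.00130) and Ror2, a Wnt5a receptor, by 0.40 (limma adjusted p = 0.00534). The co-receptor gene Lrp5 fell by 0.34 (limma adjusted p = 0.0162, kept in 19 of 21 settings). The summed level of the 18 receptor genes ran between 131.9 and 137.3 RPKM in homozygous, 126.6 and 141.6 RPKM in heterozygous and 131.0 and 148.6 RPKM in control libraries, and these ranges overlap.

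**Figure D3:**
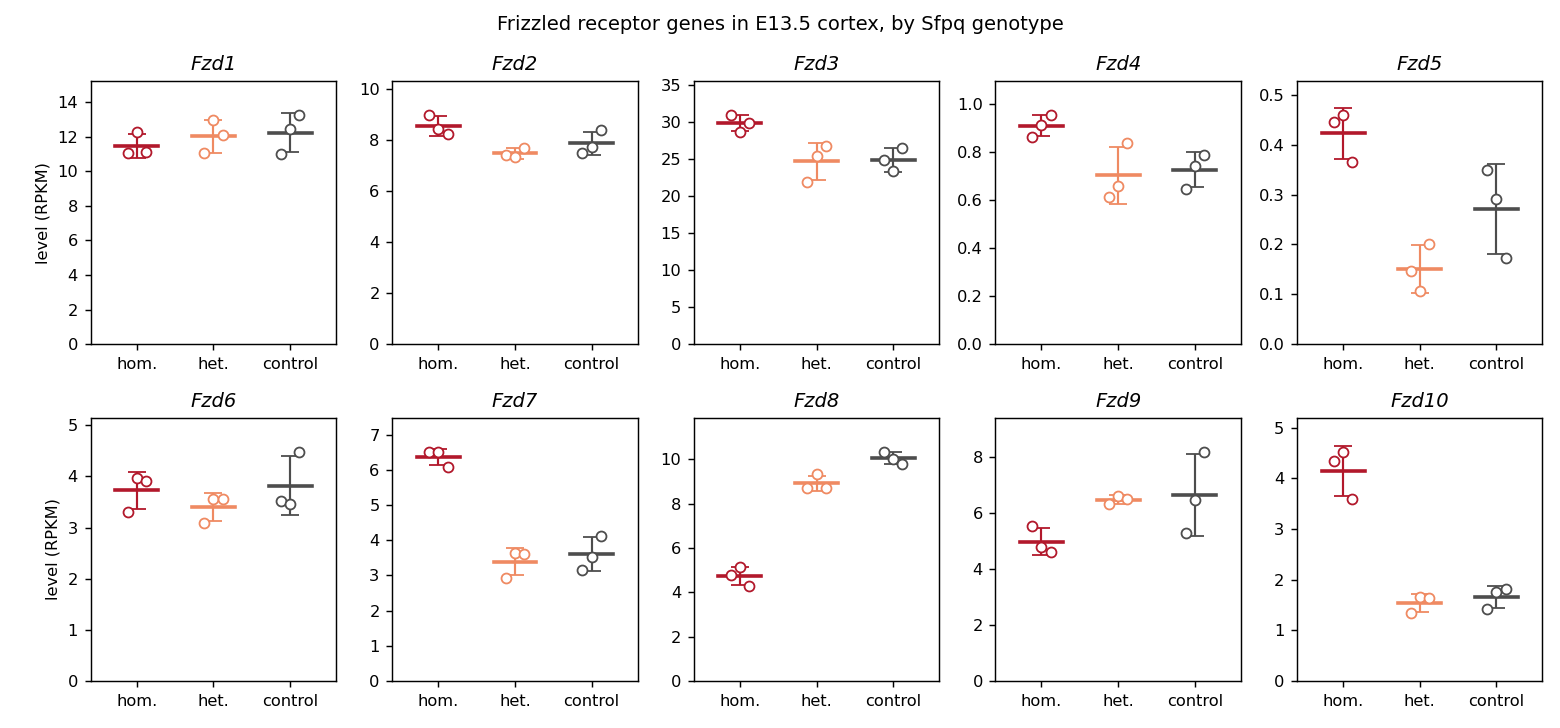
Level in RPKM of the 10 Frizzled receptor genes in the 9 libraries; points are libraries, horizontal bars group means and whiskers SD (n = 3), with homozygous (hom.), heterozygous (het.) and control libraries from left to right. Fzd7 and Fzd10 stand above, and Fzd8 below, all heterozygous and control values in the homozygous group, while the Fzd1 groups overlap.

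Of the antagonists that act outside the cell or at its surface, beside Sfrp1, Kremen1, a membrane receptor that removes Lrp6 from the surface together with Dkk proteins, rose by 0.42 (limma adjusted p = 0.00541), and Frzb, a relative of Sfrp1, by 0.29 (limma adjusted p = 0.0492, lost in 11 of 21 settings). Dkk3 fell by 0.61 (limma adjusted p = 5.76e-04). Inside the cell, 21 genes were tested, of which 2 rose and 5 fell. That is 33.3% called, against 34.3% of all genes, 14.4% higher and 19.9% lower, so it is close to the share over all genes. The beta-catenin gene Ctnnb1 rose by 0.17 (limma adjusted p = 0.0241, kept in 18 of 21 settings). Ankrd6, the vertebrate relative of the fly planar polarity gene diego, measured 1.14, 1.12 and 1.61 RPKM in homozygous libraries, 10.2, 8.84 and 9.84 RPKM in heterozygous ones and 8.72, 9.51 and 11.9 RPKM in control ones. Its homozygous mean was 12.9% of the control mean. Btrc, which marks beta-catenin for degradation, fell by 0.51 (limma adjusted p = 2.49e-04), Dact1 by 0.44 (limma adjusted p = 0.00197) and the beta-catenin inhibitor gene Ctnnbip1 by 0.33 (limma adjusted p = 8.05e-04), while Tnks2, a tankyrase that acts on Axin, rose by 0.25 (limma adjusted p = 0.00272).

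In the nucleus, beside Lef1, Tcf7l2 rose by 0.57 (limma adjusted p = 0.00231), with 0.786, 0.886 and 0.718 RPKM in homozygous libraries against 0.377, 0.434 and 0.313 RPKM in control ones. Its control values were all under 0.5 RPKM, so Tcf7l2 passed the filter only through the homozygous group, where it is high. The co-repressor gene Tle1 fell by 0.88 (limma adjusted p = 2.42e-06). Of 9 target genes that passed the filter, Axin2 and Lef1 included, 3 rose and 2 fell, 55.6% called against 34.3% of all genes. The list was not tested as a set. Of 6 under the filter, Notum and Rnf43 were higher in the fit with no filter, where 23.3% of all genes were called. Ccnd1, the cyclin D1 gene, measured 53.9, 49.6 and 51.8 RPKM in homozygous libraries, 29.2, 28.7 and 33.1 RPKM in heterozygous ones and 36.9, 38.5 and 34.4 RPKM in control ones, and rose by 0.50 against control (limma adjusted p = 1.70e-04). Sp5 rose by 0.48 (limma adjusted p = 0.00441), with 1.07, 1.10 and 1.26 RPKM in homozygous libraries against 0.580, 0.716 and 0.739 RPKM in control ones. Nkd1, a feedback inhibitor, fell by 0.70 (limma adjusted p = 0.00359), and Myc by 0.25 (limma adjusted p = 0.0401, lost in 8 of 20 settings). Axin2, Lef1, Ccnd1, Sp5, Nkd1 and Myc thus did not share a direction. In the planar polarity list Celsr1 fell by 0.59 (limma adjusted p = 0.00114), Daam1 by 0.44 (limma adjusted p = 0.00233), and Celsr2 rose by 0.52 (limma adjusted p = 0.00531).

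**Figure D4:**
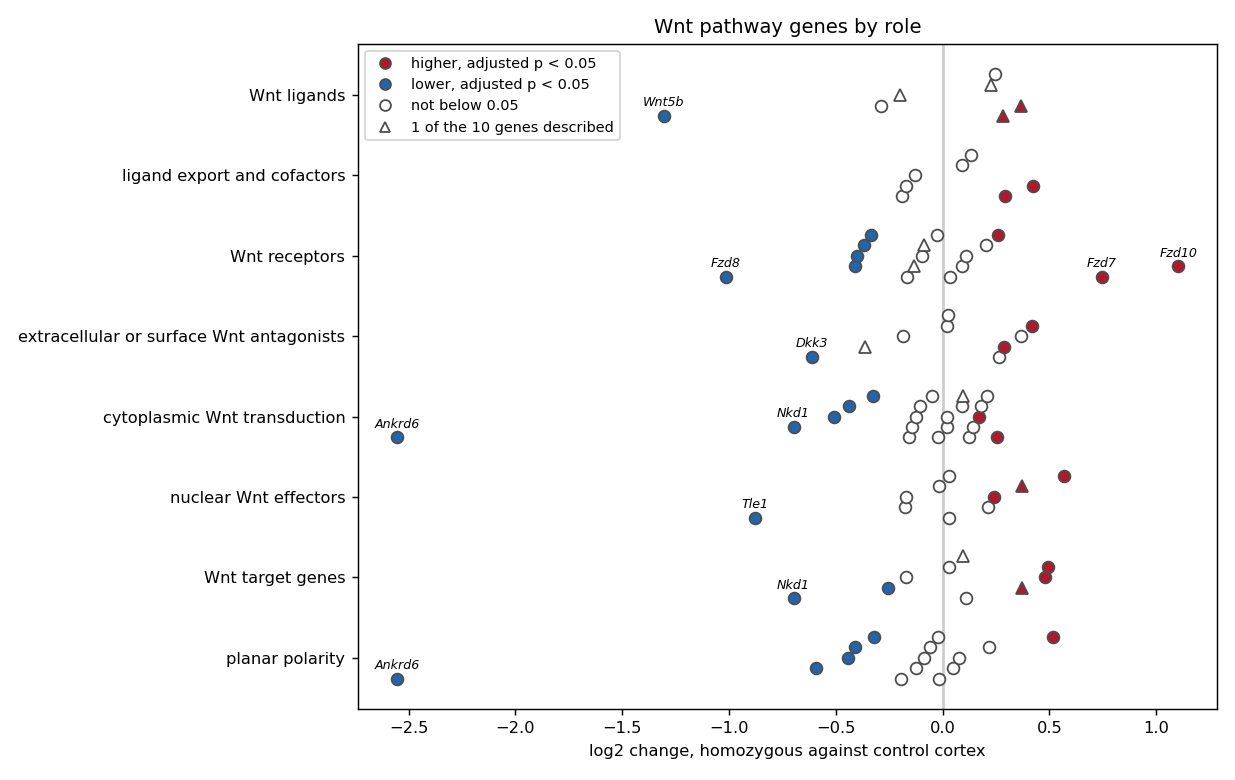
Log2 change (horizontal axis, log2(RPKM + 0.5) scale) in homozygous against control cortex of each tested Wnt pathway gene, 1 point a gene, grouped by role; genes in 2 lists appear under both, and triangles mark the 9 of the 10 genes that passed the filter. Higher and lower calls occur in all roles but ligand export, which has 2 higher and 0 lower, and the triangles lie between -0.36 and 0.37.

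Gene length moved with the direction of the calls over the series. Genes spanning at least 100 kb in the annotation were higher in 10.6% and lower in 41.8% of 1769 cases in homozygous against control cortex, and shorter genes were higher in 15.0% and lower in 16.2% of 10387. Of the 10 Wnt genes Lrp6, at 120 kb, and Lef1, at 114 kb, are past that length. Lef1 rose and Lrp6, at -0.13, was not called. The others span 47.4 kb (Wnt7a) down to 4.38 kb (Fzd1). Of the 22 tested pathway genes of at least 100 kb 2 rose, Lef1 and Tcf7l2, and 8 fell, among them Wnt5b and Ankrd6, while of the 67 shorter ones 15 rose and 9 fell. Tcf7l2 is tested only because its homozygous values lift it past the filter. Fzd8, at 3.35 kb, fell as well, and Wnt7a and Wnt7b, at 47.4 and 46.4 kb, rose.

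**Figure D5:**
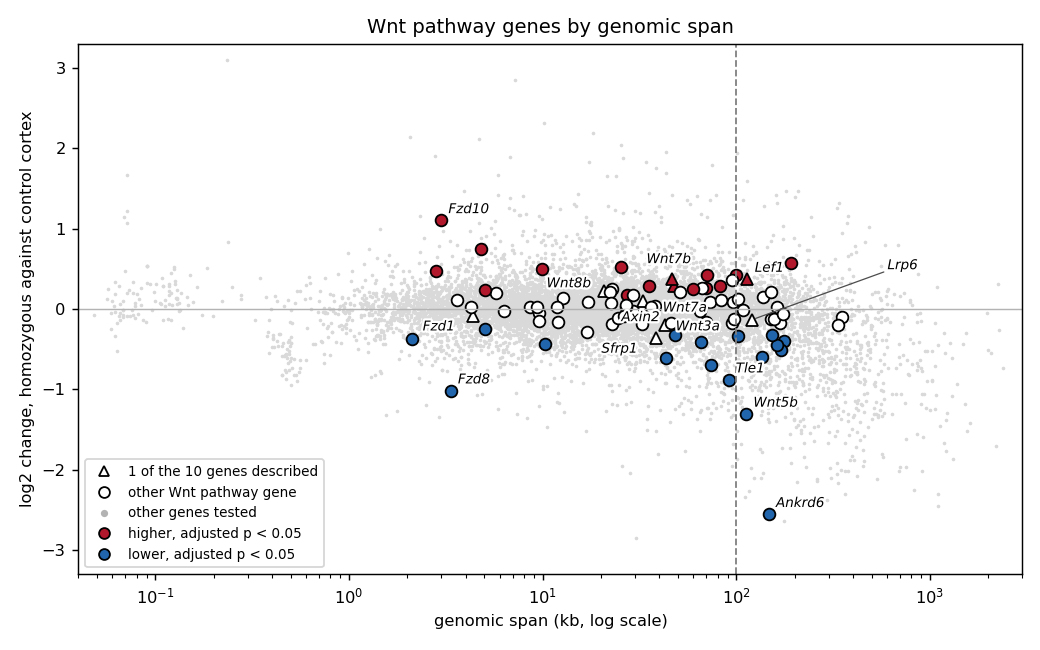
Log2 change in homozygous against control cortex (vertical axis, log2(RPKM + 0.5) scale) against genomic span in kb (log axis) for all genes tested, with the Wnt pathway genes in front and the 10 genes as triangles, without Fzd5; the dashed line is at 100 kb. Lef1 at 114 kb lies above 0 at 0.37, and Wnt5b and Ankrd6 lie at -1.31 and -2.55.

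Markers of other cells were read in the same fit, where 34.3% of all genes were called in homozygous against control cortex, 14.4% higher and 19.9% lower. Of the 12 diencephalon markers 4 passed the filter, Tcf7l2, which is also on the nuclear list above, Lhx9, Olig3 and Otx2. All 4 rose in homozygous against control cortex, but Tcf7l2 passed the filter only through its homozygous values. Low markers that stay level or fall do not pass the filter, so 4 of 4 does not describe the 12. The 12 summed to 20.5, 21.2 and 19.1 RPKM in homozygous libraries, 8.33, 9.67 and 11.2 RPKM in heterozygous ones and 10.9, 10.1 and 9.98 RPKM in control ones, and 8 averaged under 0.5 RPKM, none of them at 0 in all libraries. Of 12 radial glia markers 1 rose, Vim, and 5 fell, and of 10 neuronal markers 2 rose and 3 fell, 50% of each list. Of 12 endothelial markers, the cells on which Wnt7a and Wnt7b act, 1 rose, Mfsd2a, and the 12 summed to 88.1, 94.5 and 109 RPKM in homozygous, 83.9, 88.4 and 91.3 RPKM in heterozygous and 80.8, 86.0 and 102 RPKM in control libraries. Of the other lists 5 of 7 Cajal-Retzius and 4 of 9 microglia markers rose, 71.4% and 44.4%. So did 1 of 6 choroid plexus markers, which is Otx2 again, 1 of 6 ventral telencephalon and 1 of 4 pericyte markers. None of 8 meningeal markers was called, and 2 of 8 erythroid markers fell. Shares called were 16.7% of choroid plexus and of ventral telencephalon, 25% of pericyte and of erythroid and 8.33% of endothelial markers, all below 34.3%. The part of these cells in the levels of the 10 Wnt genes was not tested.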

How the data were processed

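The deposited tables, 1 for each library, list an RPKM value (reads per kilobase of transcript, scaled to a library of 1e6 reads) for 30978 RefSeq transcripts, per the file headers. The submitters' processing notes name CASAVA 1.8.2, TopHat 1.4.1 and the build mm9. Not given in the sources used here are the program behind the values, whether it used strand, and how it treated reads shared between transcripts. The files give no counts, so no count test was run. Of values worth under 5 reads, 63.46% to 68.94% lay within 0.1 of a whole read, and depths in reads are estimates from that step.

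Names came from a RefSeq table of GRCm38.p6 (30507 transcripts) and GENCODE M21 (178), and 293 transcripts with no name were left out. Neither is the authors' build, so spans and the promoter windows, the only coordinates printed, refer to GRCm38. A single transcript stood for each of 23201 genes, that with the highest mean over the 9 libraries, and 4253 genes had several. Values of genes with overlapping or antisense neighbours are uncertain.

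limma 3.58.1 in R 4.3.3 was fitted to log2(RPKM + 0.5) by genotype over the 9 libraries, with a mean-variance trend, for genes averaging at least 0.5 RPKM, and p-values were adjusted over all genes tested. The fit was tested on simulated data. Single values were also tested by exact permutation (scipy 1.17.1). No libraries were identical. The sex of a library was taken from Xist and 4 genes of the Y chromosome.

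The 10 genes, the pathway and marker lists and the tests were chosen with earlier results of these data known. Chosen to be named were the 10 genes, Sfpq, every Wnt ligand and Frizzled receptor past the filter, of each pathway list up to 5 other called genes with the smallest adjusted p, up to 3 of the most abundant genes of a marker list, and for each of the 10 the 3 most alike genes. Not all of these are described above. Draxin, Pygo2, Tle4, Tnfrsf19 and most of the abundant markers were left out. The 3 most alike genes are given for Wnt7a, Wnt7b, Wnt3a and Lef1, and only the nearest for the others. Lrp5, Ctnnb1 and called markers beyond the 3 most abundant of a list were named after their values were seen. Alternatives were other pseudocounts, filters, transcript choices and scalings, a fit of 2 groups, no trend, a replicate block, sex in the model and each library left out. Because Fzd5 is under the filter, combinations of no filter with these were added after seeing the data.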

Additional observations from a re-analysis of the deposited data

Results flagged for a closer look

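Wnt8b was marked because all 3 homozygous libraries were above the control mean and all 3 heterozygous ones below it. Its log2 difference between homozygous and heterozygous cortex was 0.33 (limma adjusted p = 0.0507), with 0.23 for homozygous and -0.10 for heterozygous against control cortex. Neither difference from control passed.

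Fzd5 was marked in the same way, and all 3 of its homozygous libraries were also above every control one. Its log2 difference between homozygous and heterozygous cortex was 0.50 (limma adjusted p = 0.00559 in the fit with no filter), with 0.26 for homozygous and -0.24 for heterozygous against control cortex. It is the lowest of the 10 genes, at 0.106 to 0.459 RPKM over all libraries. The control mean rests on 2 female libraries and 1 male one, and the male one lay inside the range of the heterozygous libraries, all male.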

How the results depend on the processing

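Over the 10 genes, the 3 comparisons and up to 21 alternatives, 545 values kept their direction and side of the threshold, 24 fell below it, 21 passed it and 10 changed sign. The 3 calls in homozygous against control cortex became 0 with no filter and 1 with sex in the model, where it was Sfrp1, lower, and ranged from 0 to 3 over the libraries left out. In homozygous against heterozygous cortex the 0 calls became 1 with pseudocount 1, no filter, every transcript tested, median scaling, no trend or a replicate block, 2 in the fit of 2 groups, 3 with quantile normalization, and 0 to 1 over the libraries left out. In heterozygous against control cortex 1 gene of all was called in the fit of 2 groups, and 0 to 1 over the libraries left out. The replicate numbers were not taken as pairs, since deviations of same-numbered libraries from their group means correlated at -0.0444 to 0.404. Not every library was closest to its own number. Between homozygous and control libraries, numbers 1 and 3 correlated at 0.404 and 0.322, and number 2 at 0.0685. Differently numbered libraries of these groups ran from -0.440 to 0.0963. Whether libraries of the same number share a batch was not tested. The replicate block gave 1897 genes higher and 2532 lower in homozygous against control cortex, and with it Wnt7b missed the threshold (limma adjusted p = 0.0502) and Sfrp1 passed, lower (0.0262).

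Between the mutant groups, quantile normalization gave 2429 genes higher and 2099 lower, where the fit without it gave 1771 and 2221. Signs changed only where values were near 0. With sex in the model these were Wnt7b (-0.027) and Lrp6 (-0.058) in heterozygous against control cortex and Sfrp1 (0.013) in homozygous against heterozygous cortex. Over the libraries left out, heterozygous against control values ran from -0.0080 to 0.22 for Wnt7b, -0.047 to 0.068 for Lrp6 and -0.093 to 0.035 for Fzd1, and the homozygous against heterozygous value of Sfrp1 ran from -0.11 to 0.0030. The cause was not tested. Fzd5 passed in homozygous against heterozygous cortex in all 14 alternatives that kept it, with adjusted p of 0.00205 to 0.0238. Pathway calls in homozygous against control cortex ran from 23 to 38, the lowest without control library 2 or homozygous library 1. Calls over all genes were fewer there too. They were 1176 higher and 1932 lower without control library 2, and 1364 and 1967 without homozygous library 1. With all 9 libraries they were 1747 and 2423. With 3 libraries a group, differences of -0.36 (Sfrp1, homozygous against control) and 0.33 (Wnt8b, homozygous against heterozygous) on the log2 scale were not called. Smaller changes in homozygous against control cortex, 0.28 for Wnt7a and 0.17 for Ctnnb1, were called, so these sizes are not a limit of detection.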
